A study of Homo sapiens with 15 samples.

Results

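The 40 genes described here are a list of interferon-stimulated genes and antigen presentation genes: DDX58, IFIH1, STAT2, IRF1, IRF7, IRF9, IFIT1, IFIT2, IFIT3, IFIT5, OAS1, OAS2, OAS3, OASL, MX1, MX2, ISG15, USP18, HERC5, HERC6, RSAD2, BST2, IFI6, IFI27, IFI35, IFI44, IFI44L, ISG20, SAMD9, SAMD9L, EPSTI1, PARP9, DTX3L, PARP14, TRIM21, TRIM22, PSMB8, PSMB9, TAP1 and B2M. They were chosen by symbol, and 40 of 40 were found among the 26485 genes of the count tables. RNA-seq counts came from 15 libraries of PSN-1, an established human line from pancreatic ductal adenocarcinoma. In the first experiment PSN-1 cells were transfected for 72 hours with an siRNA named for MondoA (siMondoA), with an siRNA named for MLX (siMLX) or with a control siRNA (siControl). In the second, PSN-1 cells were given either SBI-477, named a MondoA inhibitor in the labels, or the vehicle DMSO, also for 72 hours. Each of the 5 groups held 3 libraries, and no dose of SBI-477 was given in the labels. All groups share the PSN-1 line and its growth medium, and the labels name no interferon or other immune stimulus. The labels do not say whether the 3 libraries of a group came from separate cultures; p-values here measure library-to-library spread, part of which may be technical.

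Interferons are secreted proteins that cells release after sensing viral or misplaced nucleic acid. They bind receptors coupled to Janus kinases, which phosphorylate STAT proteins. A complex that includes STAT2 and IRF9 then binds the interferon-stimulated response element (ISRE), and STAT dimers bind the gamma-activated site (GAS). Many of the induced proteins act against viruses, and others cut and load peptides for display by MHC class I molecules, in which B2M is the light chain. Tumour lines often keep a low tonic level of this program without added interferon. MondoA, encoded by MLXIP, binds DNA with its partner MLX at E-box sequences and responds to glucose, and MLX also links it to the wider MYC family of dimerising proteins.

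Promoter sequence from RefSeq, 250 bases before to 50 bases after an annotated start, was found for 33 of the 40 genes. IFIT2, IRF7, OAS2, OASL, MX2, USP18 and TRIM22 had no entry. The letters GAAANNGAAA, a short form of the ISRE searched on both strands with overlapping matches allowed, stood in at least 1 window of 24 of these 33 genes. DDX58, STAT2, IRF1, IRF9, OAS1, HERC6, IFI35, SAMD9L and PSMB9 had windows without a match. Counted by window, 28 of the 42 windows of these genes (66.7%) held a match, against 1255 of all 35116 RefSeq windows of the same length (3.57%). The GAS letters TTCNNNGAA, also searched on both strands, stood in 12 of the 42 windows (28.6%) and in 7.66% of all windows. The E-box letters CACGTG, which read the same on both strands, stood in 3 windows, of IRF9, HERC5 and ISG20 (7.14%), and in 7.26% of all windows. A match is a run of letters and was not tested as a bound site.

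Promoters of 5 genes with calls below are shown as examples: IFIT1 and BST2 were lower after both siRNAs, EPSTI1 was higher after both, and TAP1 and B2M were lower after siMLX. All 5 hold a match, whereas DDX58, STAT2, IFI35, PSMB9 and SAMD9L, which also had calls, hold none. Each promoter shown is the 250 bases before a RefSeq start on GRCh38.p14, 5′ to 3′ on the strand of the gene, with ISRE matches in capitals. The IFIT1 window is chr10:89392373-89392622 on the plus strand, the BST2 window is chr19:17405631-17405880 on the minus strand and the EPSTI1 window is chr13:42992242-42992491 on the minus strand. The TAP1 window is chr6:32853705-32853954 on the minus strand and the B2M window is chr15:44711267-44711516 on the plus strand. TAP1 has another RefSeq start, whose window held no ISRE match and is not shown.
IFIT1: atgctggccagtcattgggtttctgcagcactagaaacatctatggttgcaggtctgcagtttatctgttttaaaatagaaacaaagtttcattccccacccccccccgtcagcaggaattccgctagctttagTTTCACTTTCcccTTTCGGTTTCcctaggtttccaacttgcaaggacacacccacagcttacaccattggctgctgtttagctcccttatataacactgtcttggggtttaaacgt
BST2: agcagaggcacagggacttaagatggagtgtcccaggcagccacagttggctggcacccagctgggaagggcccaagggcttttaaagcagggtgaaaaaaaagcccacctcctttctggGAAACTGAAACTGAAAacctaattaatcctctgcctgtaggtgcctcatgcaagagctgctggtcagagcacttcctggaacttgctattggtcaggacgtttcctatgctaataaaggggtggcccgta
EPSTI1: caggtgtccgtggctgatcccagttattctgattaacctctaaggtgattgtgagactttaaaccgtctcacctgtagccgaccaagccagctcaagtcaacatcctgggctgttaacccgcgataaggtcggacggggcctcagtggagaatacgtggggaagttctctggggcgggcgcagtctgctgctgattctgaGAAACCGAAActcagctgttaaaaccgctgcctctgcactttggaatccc
TAP1: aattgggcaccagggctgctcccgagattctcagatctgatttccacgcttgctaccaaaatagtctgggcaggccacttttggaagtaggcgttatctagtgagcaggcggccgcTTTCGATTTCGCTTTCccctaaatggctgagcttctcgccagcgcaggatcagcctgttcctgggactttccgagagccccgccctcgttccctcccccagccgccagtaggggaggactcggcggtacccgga
B2M: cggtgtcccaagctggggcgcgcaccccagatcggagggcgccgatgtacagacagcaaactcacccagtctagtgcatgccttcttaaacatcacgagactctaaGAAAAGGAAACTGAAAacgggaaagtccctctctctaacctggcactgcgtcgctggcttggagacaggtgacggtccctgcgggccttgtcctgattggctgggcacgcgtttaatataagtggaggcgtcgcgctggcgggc
IFIT1 holds 2 separate matches on the opposite strand, whose first bases lie 116 and 103 bases before the start. In BST2, TAP1 and B2M 2 matches overlap, starting 130 and 124 bases before the start of BST2, 134 and 128 before that of TAP1 and 144 and 138 before that of B2M. EPSTI1 holds 1 match, 50 bases before its start. The letters stood in the windows of both BST2 and EPSTI1, whose calls had opposite signs, and their part in the direction of change was not tested. Matches of 24 genes are mapped in the plot by distance from the start.

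**Figure D1:**
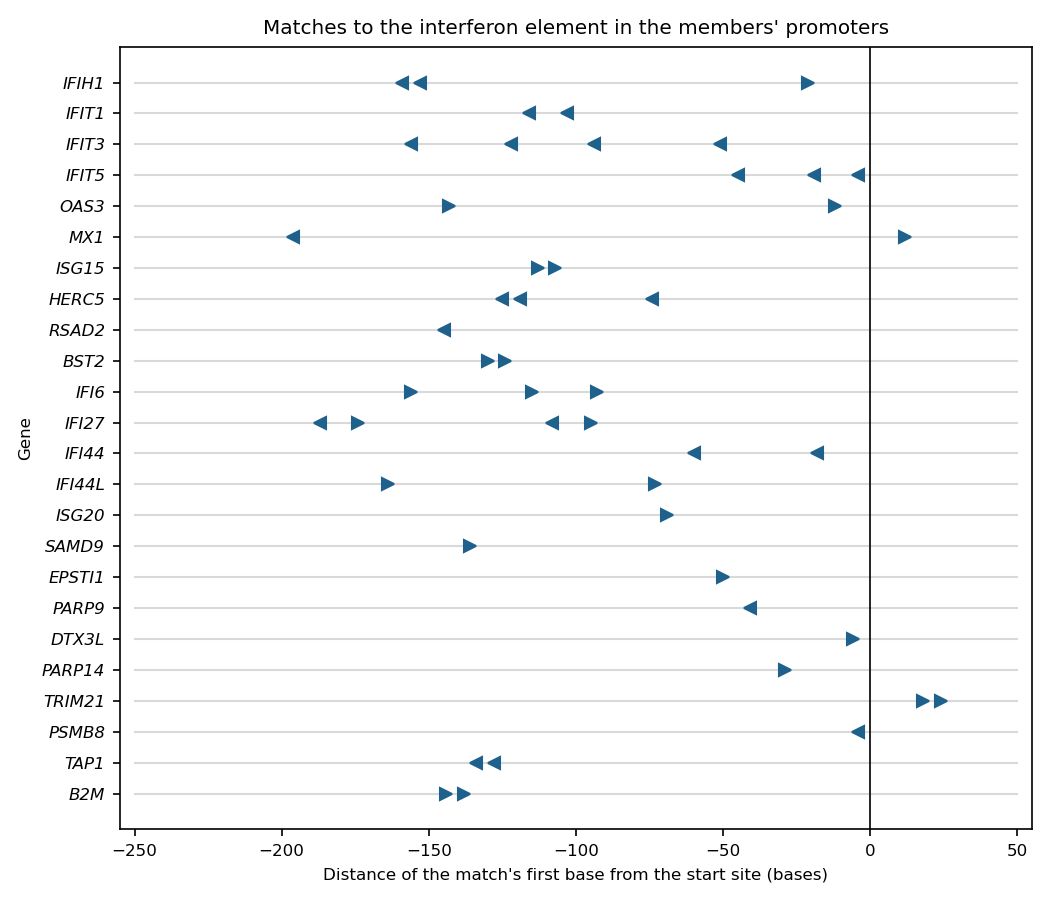
Position of each GAAANNGAAA match in the promoter windows of the 24 genes that held at least 1, in bases from the annotated start (0 marks the start). Triangles pointing right are matches on the strand of the gene and triangles pointing left are matches on the other strand; where a gene has several starts, the matches of all its windows are drawn on 1 line. The matches of TAP1 and B2M lie more than 120 bases before the start, while those of TRIM21 lie after it.

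The siRNA libraries held 11227343 to 14731691 counts and the drug libraries 23315440 to 30480362, so that 3 counts correspond to 0.204 to 0.267 counts per 1000000 counts (CPM) in the first experiment and 0.0984 to 0.129 CPM in the second, for counting error only. CPM values below were scaled by edgeR's TMM factor of each library, separately in the 2 experiments. MLXIP was at 22.6, 23.4 and 15.7 CPM in siMondoA libraries and at 83.6, 65.8 and 88.7 CPM in siControl libraries, and MLX was at 11.9, 7.15 and 7.70 CPM in siMLX libraries and at 53.4, 58.8 and 53.0 CPM in siControl libraries, so both targeted transcripts matched the labels. The 7 epithelial markers summed to 1679 to 2039 CPM in siMondoA libraries, 1965 to 2503 CPM in siMLX libraries and 1954 to 2906 CPM in siControl libraries, and to 1491 to 2520 CPM in SBI-477 and 1590 to 2212 CPM in DMSO libraries. Of the 7, CDH1 was higher (2.38) and CLDN4 lower (-1.31) after siMondoA, where 4 had an unadjusted p under 0.05, and CLDN4 was lower (-1.64) after siMLX, all as log2 fold changes. Of 11 leukocyte markers, 4 (CD14, LYZ, CD68 and CSF1R) passed the filter on low counts. Among the rest, CD3E had no count in any library and PTPRC had at most 2. Of those 4, CD68 was higher and CD14 and CSF1R were lower after siMondoA, and 0 passed after siMLX, where 2 had an unadjusted p under 0.05. The 11 summed to 73.0 to 93.5 CPM in siMondoA libraries, 70.3 to 101.5 CPM in siMLX libraries and 57.1 to 70.2 CPM in siControl libraries. In the drug experiment they summed to 52.8 to 84.1 CPM in SBI-477 and 51.8 to 78.6 CPM in DMSO libraries. The 8 fibroblast and endothelial markers summed to 106 to 201 CPM in siMondoA libraries, 203 to 344 CPM in siMLX libraries and 215 to 304 CPM in siControl libraries, with 2 of 6 tested lower after siMondoA (COL1A2 and PDGFRB), and 2 higher (COL1A1 and DCN) and the same 2 lower after siMLX. In the drug experiment these 8 summed to 44.1 to 101 CPM in SBI-477 and 36.8 to 126 CPM in DMSO libraries. Of all genes 14.2% were higher and 12.9% lower after siMondoA, where 41.4% had an unadjusted p under 0.05. After siMLX 3.72% were higher and 4.69% lower, and 26% had an unadjusted p under 0.05. The part of the marker genes in the results below was not tested. Replicate 2 of siMLX stood apart from the other two: CHAC1, a stress response gene named after its values were seen, was at 102.5 CPM in that library and at 0.708 and 1.83 CPM in siMLX replicates 1 and 3, against 80.5, 106 and 72.8 CPM in siMondoA libraries and 0.711, 1.40 and 0.717 CPM in siControl libraries. In the drug experiment the fold changes in the authors' deposited table were recovered from the counts only with replicate 2 of SBI-477 and replicate 2 of DMSO exchanged, with a median absolute difference of 1.89e-07 on the log2 scale over 13086 genes, against 0.196 with the labels as given. Drug results are therefore given for all 6 libraries as labelled and for replicates 1 and 3 alone.

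Among the 40 genes, B2M was by far the most abundant per exon length, with a mean of 201 CPM per kilobase over the 5 groups. Exon length here counts every base in any annotated exon of a gene, not 1 transcript, and the order depends on that choice. BST2 followed at 83.8, ISG15 at 24.9, PSMB8 at 22.2, TAP1 at 16.2 and IFI35 at 12.1 CPM per kilobase. At the low end EPSTI1 had 0.216, HERC5 0.175, TRIM22 0.0419 and RSAD2 0.0288 CPM per kilobase. RSAD2, which encodes the antiviral enzyme viperin, had 0 to 5 counts per siRNA library and 0 to 7 per drug library, and TRIM22 had 0 to 10 and 1 to 16. HERC5 had 2 to 15 counts per siRNA library and 22 to 46 per drug library. These low-count genes left 37 of 40 genes tested in the siRNA experiment and 38 of 40 in the drug experiment. The heat map of all tested genes shows that the rows did not move as a block in any group.

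**Figure D2:**
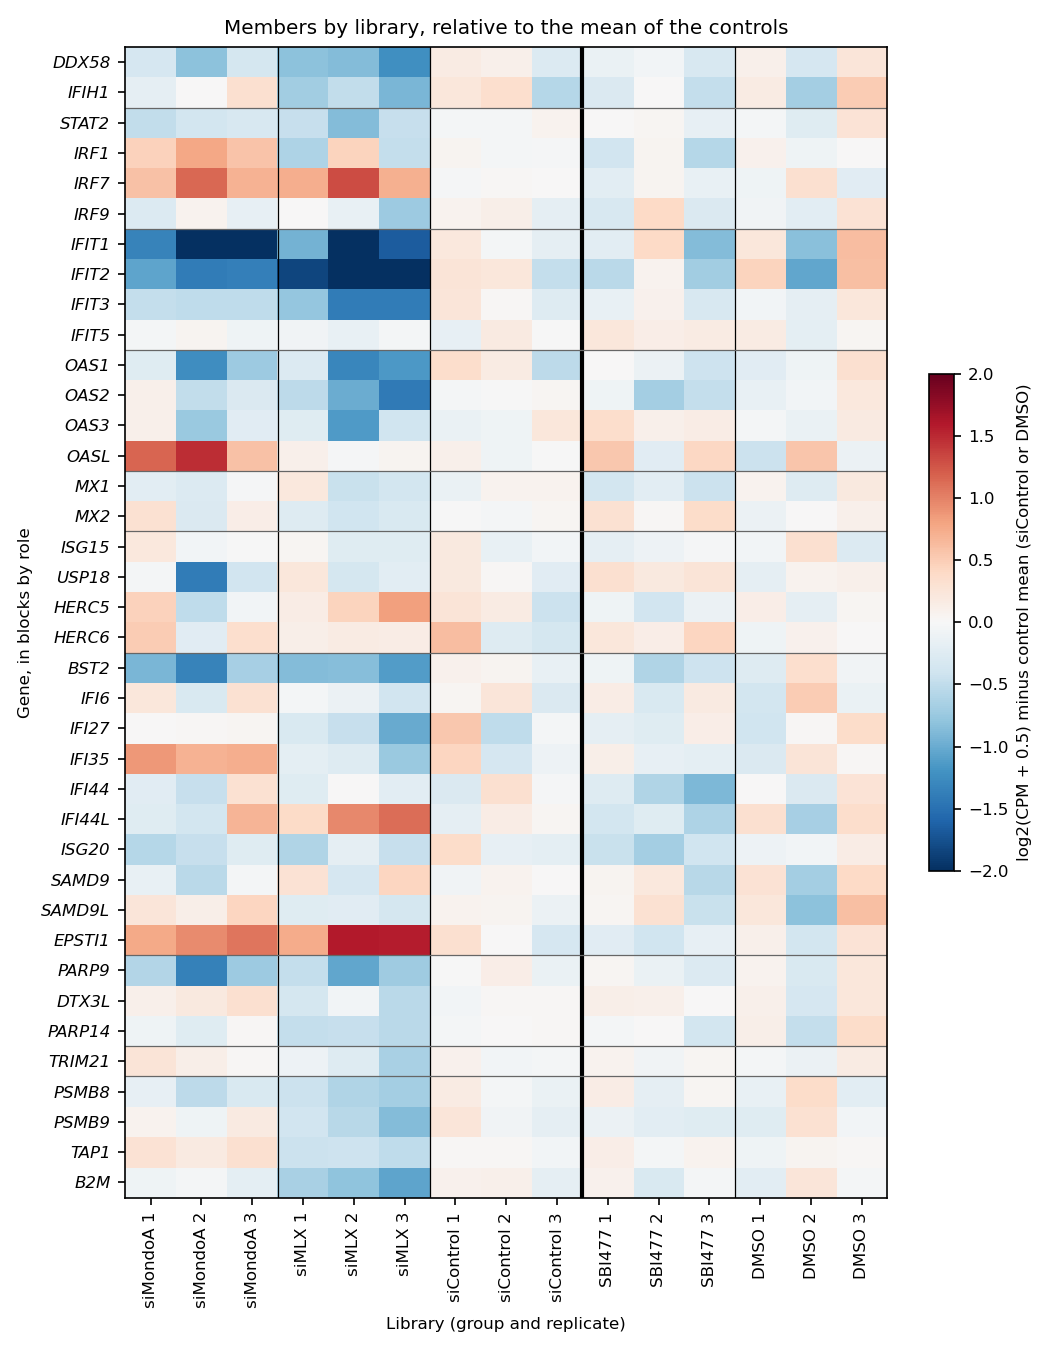
Level of each of the 38 genes tested in at least 1 experiment in each of the 15 libraries, as log2(CPM + 0.5) minus the mean of the control libraries of the same experiment (siControl or DMSO). Red is above and blue below the control mean, colours stop at 2 in either direction, and thin horizontal lines part the roles. IFIT1 and IFIT2 are blue in all 6 siMondoA and siMLX libraries and EPSTI1 and IRF7 are red in all 6, while B2M, TAP1 and PSMB9 at the foot are blue in all 3 siMLX libraries and TAP1 is red in the siMondoA libraries.

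After siMondoA, 4 of the 37 tested genes were higher than in siControl libraries (IRF7, OASL, IFI35 and EPSTI1) and 4 were lower (IFIT1, IFIT2, BST2 and PARP9), at an adjusted p under 0.05 in edgeR's quasi-likelihood test with Benjamini-Hochberg adjustment over all genes. Over all 13001 genes tested, 14.2% were higher and 12.9% were lower in that comparison, so the shares of these genes did not stand above the background in either direction. Their median log2 fold change was -0.10, against 0.0039 over all genes. The 4 higher calls became 2 without siMondoA replicate 2 or 3 and 1 without siControl replicate 2 or 3. Without these 4 libraries in turn, 8.67%, 7.6%, 6.35% and 8.04% of all genes were higher. After siMLX, 2 of the 37 genes were higher (IRF7 and EPSTI1), where 3.72% of all genes were higher. Another 11 were lower (DDX58, STAT2, IFIT1, IFIT2, IFIT3, BST2, PARP14, PSMB8, PSMB9, TAP1 and B2M), where 4.69% of all genes were lower, so a larger share of these genes than of all genes passed in that direction. Their median log2 fold change after siMLX was -0.42, against 0.02 over all genes, and 31 of the 37 estimates lay below 0. Without siMLX replicate 2 the siMLX comparison held 1 higher and 8 lower calls, with the calls of IRF7, IFIT1, STAT2, PSMB8 and PSMB9 lost and IRF1 added as lower. Of all genes 2.59% were higher and 3.68% lower in that setting. The 11 lower calls became 5 without siMLX replicate 3, 4 without siControl replicate 1 or 2 and 7 without siControl replicate 3. Of all genes 1.65% were lower without siMLX replicate 3, and 1.14%, 1.49% and 2.37% without siControl replicates 1, 2 and 3. The share of these genes called lower thus stayed above that of all genes in each setting. The 2 higher calls became 1 without siControl replicate 1 and 0 without siMLX replicate 3 or siControl replicate 2 or 3. In these settings 0.789% to 1.47% of all genes were higher. In the authors' deposited table, 3 of 38 genes with a value were higher and 5 lower after siMondoA at an adjusted p under 0.05, where 12.2% of all genes were higher and 11% lower. After siMLX 1 of 37 was higher and 13 lower in the authors' deposited table, where 5.26% of all genes were higher and 6.48% lower. The authors' siRNA fold changes were recovered by DESeq2 with the replicate number in the model, which the edgeR calls above leave out. The siMondoA and siMLX comparisons share the siControl libraries and are therefore not independent of each other. In whole-culture RNA, fewer cells expressing a gene and less RNA per cell cannot be told apart.

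**Figure D3:**
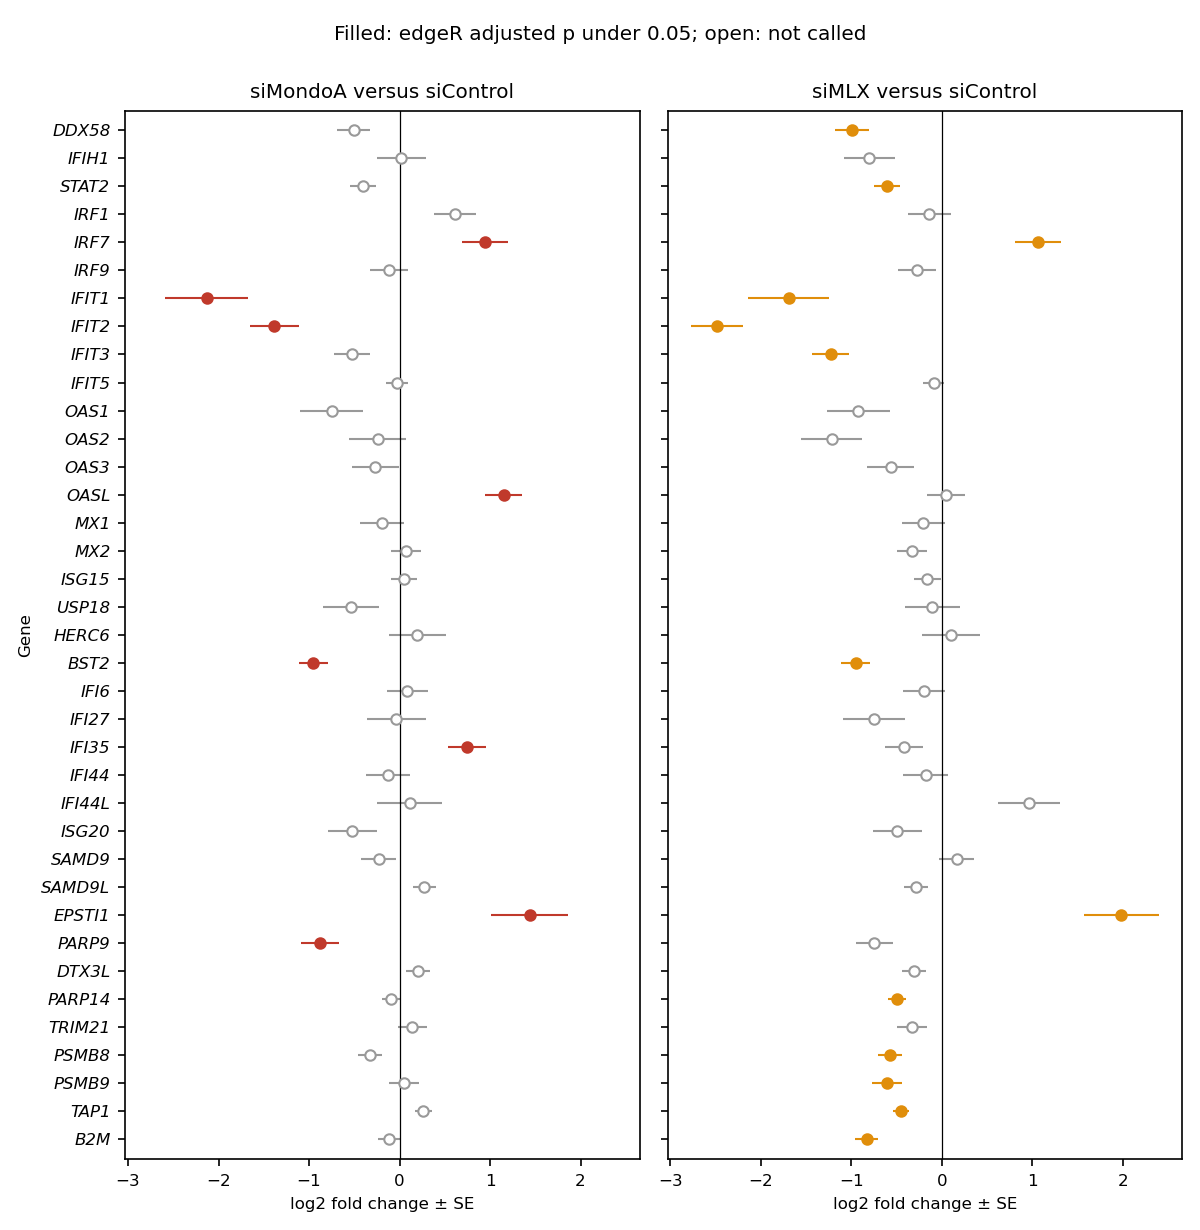
Log2 fold change of the 37 tested genes with its standard error (bars) for siMondoA versus siControl (left) and siMLX versus siControl (right), from edgeR. Filled points passed an adjusted p of 0.05 and open points did not. Among the IFIT genes and BST2 the filled points lie left of 0 in both panels, and the filled points of PSMB8, PSMB9, TAP1 and B2M stand in the siMLX panel alone.

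A direct comparison of siMondoA with siMLX, which does not use the difference from siControl, called 9 of the 37 genes higher in siMondoA libraries (IFIT2, OASL, IFI35, SAMD9L, DTX3L, PARP14, PSMB9, TAP1 and B2M) and 0 lower, where 6.66% of all genes were higher and 6.21% were lower. Of the 28 genes without a call, 8 had an unadjusted p under 0.05, and of those 8 only IFI44L, named after its values were seen, had an estimate below 0 (-0.85 ± 0.34). With the called genes, 17 of the 37 had an unadjusted p under 0.05, which 30.3% of all genes had. DESeq2 also called 0 of these genes lower. The median log2 difference over the 37 genes was 0.29, against -6e-04 over all genes. The 9 higher calls became 4 without siMLX replicate 3 or siMondoA replicate 3, and 1 lower call appeared without siMLX replicate 2 or siMondoA replicate 3. Of all genes 2.4% were higher without siMLX replicate 3 and 2.85% without siMondoA replicate 3. Without siMLX replicate 2 9.91% of all genes were lower, and without siMondoA replicate 3 2.84% were.

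The cytosolic RNA sensors come first in the pathway. DDX58 encodes RIG-I, which recognises RNA with a triphosphate end. It was at 25.2, 17.8 and 24.9 CPM in siMondoA libraries, at 17.9, 17.3 and 13.4 CPM in siMLX libraries and at 35.7, 34.4 and 26.5 CPM in siControl libraries. Both knockdowns lay below every siControl library. The fall after siMLX passed the test (log2 fold change -0.99 ± 0.185 SE, edgeR adjusted p = 0.0121), and the value after siMondoA did not (-0.51 ± 0.18, edgeR adjusted p = 0.0608). By DESeq2 the siMondoA value of DDX58 passed (adjusted p = 0.0403). Without siControl replicate 1 or 2 the siMLX call was lost, at adjusted p = 0.059 and 0.0585. IFIH1 encodes MDA5, the sensor of long double-stranded RNA. It was at 5.63, 6.52 and 8.17 CPM in siMondoA libraries, at 3.80, 4.46 and 3.20 CPM in siMLX libraries and at 7.64, 8.30 and 4.17 CPM in siControl libraries. Its siMLX libraries overlapped the lowest siControl library, and neither comparison with siControl passed the test (edgeR adjusted p = 0.959 after siMondoA and 0.103 after siMLX).

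The 4 transcription factors on the list did not share a direction. IRF7, which amplifies interferon production, was at 4.38, 6.68 and 4.72 CPM in siMondoA libraries, at 4.86, 7.46 and 4.80 CPM in siMLX libraries and at 2.67, 2.79 and 2.74 CPM in siControl libraries. Every knockdown library lay above every siControl library, with log2 fold changes of 0.94 ± 0.25 after siMondoA (edgeR adjusted p = 0.0219) and 1.06 ± 0.25 after siMLX (edgeR adjusted p = 0.0316). These calls were not stable to single libraries. The siMondoA call was lost without siMondoA replicate 2 or any 1 of the 3 siControl libraries (adjusted p = 0.062 to 0.0744), and the siMLX call without siMLX replicate 2 or 3 or any 1 siControl library (0.0543 to 0.108). STAT2, part of the ISRE-binding complex, was at 16.5, 18.0 and 18.5 CPM in siMondoA libraries, at 16.9, 12.5 and 16.8 CPM in siMLX libraries and at 22.7, 22.8 and 24.6 CPM in siControl libraries. All 6 knockdown libraries were below all siControl libraries. The fall passed the test after siMLX (-0.60 ± 0.14, edgeR adjusted p = 0.032) and not after siMondoA (-0.40 ± 0.14, edgeR adjusted p = 0.0592). Leaving out siMLX replicate 2 or 3, siMondoA replicate 3 or any siControl library ended the siMLX call (0.0532 to 0.099), and without siMLX replicate 2 the siMondoA value passed (adjusted p = 0.025).

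IRF1, a factor induced by interferon gamma and NF-kB that drives antigen presentation genes, varied with the siMLX library that stands apart. It was at 75.9, 94.8 and 82.5 CPM in siMondoA libraries, at 35.9, 74.9 and 39.2 CPM in siMLX libraries and at 57.1, 53.7 and 54.4 CPM in siControl libraries. The siMondoA libraries were all above the siControl libraries, whereas siMLX replicate 2 was above them and siMLX replicates 1 and 3 were below. With all libraries neither comparison with siControl passed by edgeR (0.62 ± 0.24 after siMondoA, edgeR adjusted p = 0.075, and -0.14 ± 0.24 after siMLX, edgeR adjusted p = 0.762). After siMondoA IRF1 did pass by DESeq2 (0.0468), with the replicate block (0.0357) and with only the 6 libraries compared (0.00469), each an adjusted p. It was also called in the authors' deposited table (0.61, adjusted p = 0.00311). Without siMLX replicate 2 the log2 fold changes of IRF1 were 0.62 after siMondoA (adjusted p = 0.00229), -0.55 after siMLX (adjusted p = 0.0293) and 1.17 in siMondoA against siMLX (adjusted p = 0.000429). The part of the CHAC1-high state of that library in these values was not tested. Of the exon bases of IRF1, 22% also lie in antisense genes in GENCODE v29, whose reads cannot be told apart from those of IRF1 without strand. IRF9, the DNA-binding part of the STAT complex, was at 9.84 to 12.6 CPM in siMondoA libraries, at 7.01 to 12.03 CPM in siMLX libraries and at 10.4 to 13.02 CPM in siControl libraries. These ranges overlapped and no test passed. Its exons share 52.5% of their 25-base words with other genes, mainly with a readthrough gene, so its own level is uncertain.

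The IFIT genes, neighbours on chromosome 10 whose products bind viral RNA or translation factors, held the largest falls of the list. IFIT1 (chr10:89392546-89406486), which binds RNA caps that lack 2′-O methylation, was at 6.33, 1.83 and 3.36 CPM in siMondoA libraries, at 8.49, 2.31 and 4.95 CPM in siMLX libraries and at 19.5, 16.4 and 14.8 CPM in siControl libraries. Every knockdown library was below every siControl library. Its log2 fold change was -2.13 ± 0.46 after siMondoA (edgeR adjusted p = 0.00911) and -1.69 ± 0.45 after siMLX (edgeR adjusted p = 0.044). IFIT2 (chr10:89283694-89309276) was at 5.39, 4.13 and 4.24 CPM in siMondoA libraries, at 2.92, 1.61 and 1.91 CPM in siMLX libraries and at 14.04, 13.7 and 8.28 CPM in siControl libraries. The 3 groups did not overlap, with siMLX lowest. Its log2 fold change was -1.38 ± 0.27 after siMondoA (edgeR adjusted p = 0.00563) and -2.49 ± 0.29 after siMLX (edgeR adjusted p = 0.00138). The fall was smaller after siMondoA than after siMLX by 1.10 ± 0.30 (edgeR adjusted p = 0.0348). IFIT3 (chr10:89327894-89340971), which stabilises IFIT1 on its target, was at 13.1, 12.9 and 12.9 CPM in siMondoA libraries, at 10.6, 6.69 and 6.71 CPM in siMLX libraries and at 22.0, 18.8 and 15.4 CPM in siControl libraries. It too was lowest in siMLX libraries, with no overlap between the groups. The fall after siMLX passed the test (-1.23 ± 0.21, edgeR adjusted p = 0.00784) and the value after siMondoA did not (-0.53 ± 0.20, edgeR adjusted p = 0.0736). IFIT5 (chr10:89414586-89421001) lay next to them without a change, at 35.4 to 39.3 CPM in siMondoA libraries, 34.0 to 36.7 CPM in siMLX libraries and 33.6 to 42.4 CPM in siControl libraries.

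The calls of IFIT1 and IFIT2 after siMondoA and of IFIT2 and IFIT3 after siMLX held without any 1 library, with adjusted p up to 0.0383, 0.0295, 0.0112 and 0.0422. That of IFIT1 after siMLX was lost without siMLX replicate 2 or 3, siMondoA replicate 3 or any siControl library (0.0661 to 0.142). The difference of IFIT2 between siMondoA and siMLX was lost without siMLX replicate 2 or 3, any siMondoA library or siControl replicate 2 (0.0547 to 0.116).

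OASL differed from its relatives OAS1, OAS2 and OAS3. The OAS enzymes make 2′-5′ oligoadenylates, which are signal molecules of the antiviral response, while OASL lacks that activity and enhances RIG-I signalling. OASL (chr12:121019111-121039242) was at 26.1, 32.4 and 17.3 CPM in siMondoA libraries, at 12.2, 11.2 and 11.9 CPM in siMLX libraries and at 12.2, 10.6 and 11.4 CPM in siControl libraries. It was higher in all siMondoA libraries, and siMLX and siControl libraries overlapped. The log2 difference was 1.15 ± 0.20 against siControl (edgeR adjusted p = 0.00398) and 1.10 ± 0.20 against siMLX (edgeR adjusted p = 0.00803), and both held without any 1 library, with adjusted p up to 0.0238 and 0.0322. After siMLX it was 0.05 ± 0.21 (edgeR adjusted p = 0.915). OAS1, OAS2 and OAS3, neighbours elsewhere on chromosome 12, had log2 fold changes of -0.75, -0.24 and -0.27 after siMondoA and of -0.92, -1.22 and -0.57 after siMLX, with no call by edgeR in either comparison. In the authors' deposited table OAS1, but not OAS2 or OAS3, was lower after siMondoA (adjusted p = 0.0311) and after siMLX (adjusted p = 0.00499). OAS2 was at 2.89, 1.75 and 2.08 CPM in siMondoA libraries, at 1.68, 1.08 and 0.686 CPM in siMLX libraries and at 2.58, 2.64 and 2.74 CPM in siControl libraries. Its siMLX libraries all lay below the siControl libraries, with an edgeR adjusted p of 0.0505. When the replicate number, which siMLX and siControl libraries shared, entered as a block, OAS1 (-0.965, adjusted p = 0.0246) and OAS2 (-1.26, adjusted p = 0.0296) were called lower after siMLX. The Mx GTPases, dynamin-like proteins that trap viral nucleocapsids, did not pass in any comparison. MX1 was at 3.26 to 4.003 CPM in siMondoA libraries, 2.85 to 4.78 CPM in siMLX libraries and 3.64 to 4.30 CPM in siControl libraries, and MX2 at 11.3 to 17.3 CPM in siMondoA libraries, 10.4 to 11.6 CPM in siMLX libraries and 13.6 to 14.2 CPM in siControl libraries.

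ISG15, a ubiquitin-like protein, and the enzymes that attach and remove it showed no call. ISG15 was at 27.1, 22.4 and 23.2 CPM in siMondoA libraries, at 23.9, 19.5 and 19.5 CPM in siMLX libraries and at 26.8, 21.0 and 22.4 CPM in siControl libraries. The groups overlapped, although ISG15 was the third most abundant gene of the list per exon length. USP18, which removes ISG15 and restrains interferon receptor signalling, was at 12.7, 4.69 and 9.93 CPM in siMondoA libraries, at 15.4, 10.2 and 11.3 CPM in siMLX libraries and at 15.2, 13.3 and 11.2 CPM in siControl libraries, with siMondoA replicate 2 lowest. USP18 shares 33.8% of its 25-base words with other genes, chiefly USP41. HERC6 was at 3.10 to 5.47 CPM in siMondoA libraries, 4.07 to 4.23 CPM in siMLX libraries and 2.80 to 5.95 CPM in siControl libraries. HERC5, the human ligase for ISG15, had too few counts for the test in the siRNA libraries.

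**Figure D4:**
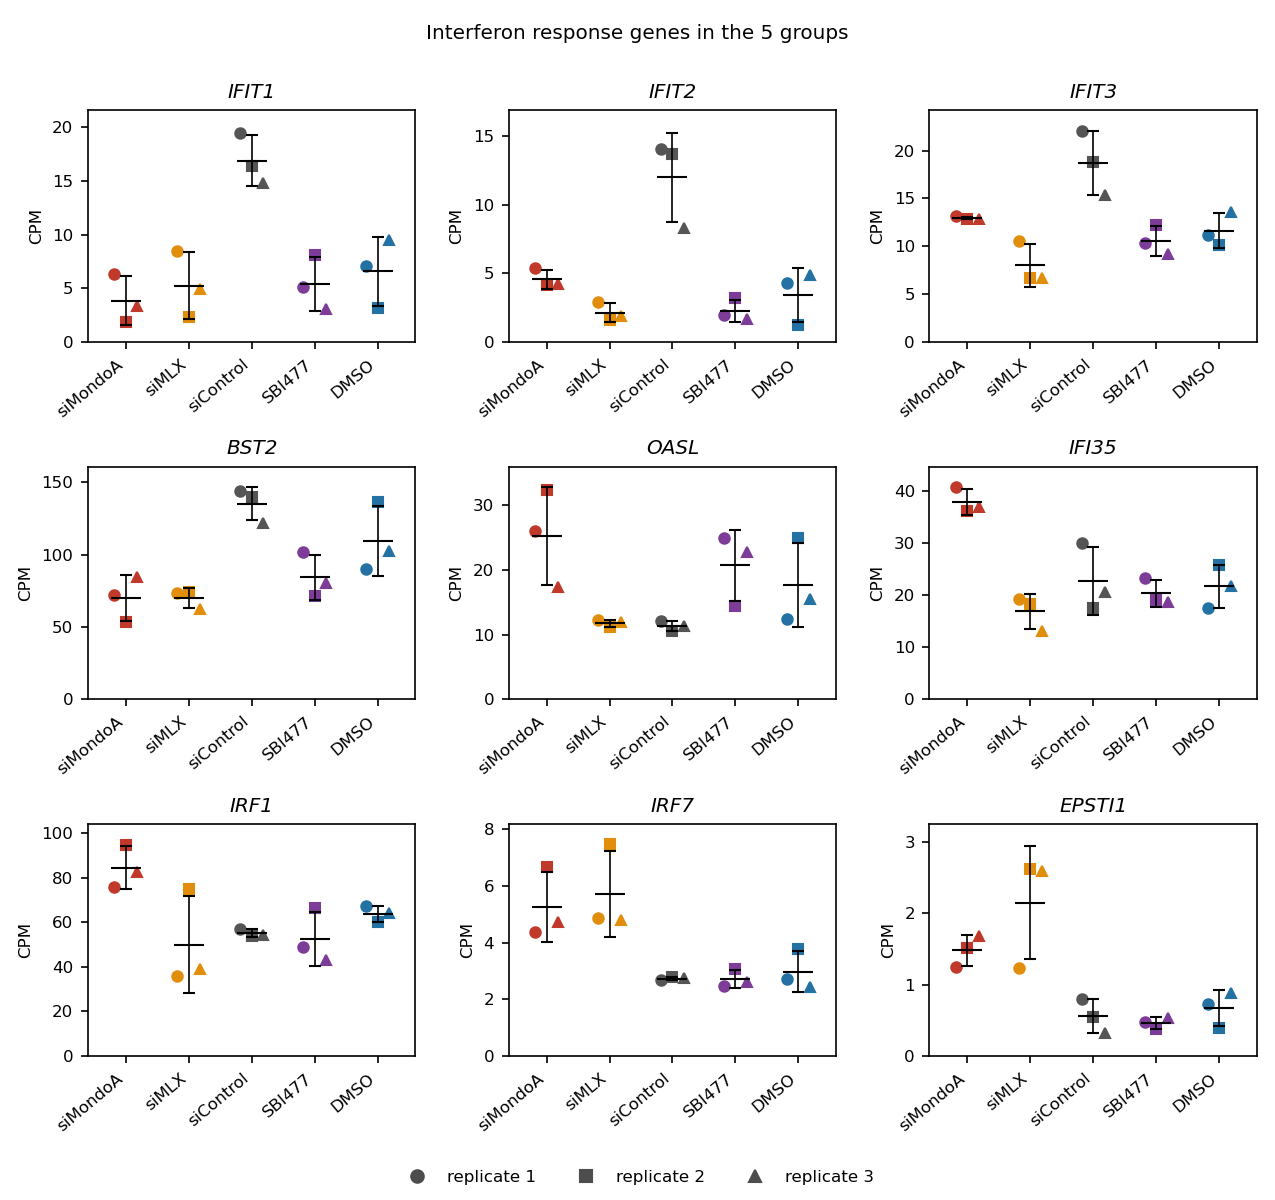
CPM of 9 interferon response genes in each library of the 5 groups; symbols are replicates 1, 2 and 3, and the horizontal line with its bar is the mean with SD of 3 libraries. IFIT1, IFIT2, IFIT3 and BST2 were below every siControl library in all siMondoA and siMLX libraries, OASL and IFI35 were high in siMondoA libraries, and EPSTI1 and IRF7 were above every siControl library after both siRNAs. In the SBI-477 and DMSO panels replicate 2 often lies on the opposite side from replicates 1 and 3.

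Among the other effectors BST2 fell after both siRNAs. BST2 (tetherin, chr19:17402939-17405648) holds budding viruses at the cell surface. It was at 71.7, 53.0 and 84.6 CPM in siMondoA libraries, at 73.7, 74.2 and 62.0 CPM in siMLX libraries and at 144, 140.0 and 122 CPM in siControl libraries. All 6 knockdown libraries were below all siControl libraries. The log2 fold change was -0.95 ± 0.16 after siMondoA (edgeR adjusted p = 0.00317) and -0.95 ± 0.16 after siMLX (edgeR adjusted p = 0.00821), and both calls held without any 1 library, with adjusted p up to 0.018 and 0.0452. BST2 shares none of its 25-base words with other genes.

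EPSTI1, an epithelial-stromal interaction gene induced by interferon, moved the other way at a low level. It was at 1.25, 1.51 and 1.68 CPM in siMondoA libraries, at 1.24, 2.62 and 2.59 CPM in siMLX libraries and at 0.7997, 0.543 and 0.326 CPM in siControl libraries. Each knockdown library lay above each siControl library, with log2 fold changes of 1.44 ± 0.43 (edgeR adjusted p = 0.0311) after siMondoA and 1.98 ± 0.41 (edgeR adjusted p = 0.0177) after siMLX. The siMondoA call was lost without siMondoA replicate 2 or 3 or siControl replicate 2 or 3 (0.072 to 0.112). The siMLX call was lost without siMLX replicate 3 or siControl replicate 2 or 3 (0.0663 to 0.0772). IFI35, which binds the related protein NMI, was at 40.6, 36.1 and 36.8 CPM in siMondoA libraries, at 19.3, 18.3 and 13.03 CPM in siMLX libraries and at 29.9, 17.4 and 20.5 CPM in siControl libraries. The siMondoA libraries stood above both other groups, while siMLX and siControl libraries overlapped. The log2 difference was 0.75 ± 0.21 against siControl (edgeR adjusted p = 0.0241) and 1.17 ± 0.21 against siMLX (edgeR adjusted p = 0.00707). The call against siMLX held without any 1 library (up to 0.03), and that against siControl was lost without siMondoA replicate 3 or siControl replicate 2 or 3 (0.0587 to 0.0939).

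SAMD9 and SAMD9L, adjacent genes on chromosome 7 for antiviral proteins that restrict poxviruses, were at 36.6 to 52.3 and 24.7 to 30.7 CPM in siMondoA libraries. In siMLX libraries they were at 42.4 to 72.5 and 17.6 to 19.2 CPM, and in siControl libraries at 50.8 to 56.0 and 20.9 to 23.8 CPM. SAMD9L was higher in siMondoA than in siMLX libraries by 0.56 ± 0.13 (edgeR adjusted p = 0.019), a call lost without siMLX replicate 1 or 3 or siMondoA replicate 3 (0.0598 to 0.0794). IFI6, IFI27, IFI44, IFI44L and ISG20 passed in no comparison of the siRNA libraries. IFI44L was at 2.11, 1.91 and 4.48 CPM in siMondoA libraries, at 3.54, 5.54 and 6.25 CPM in siMLX libraries and at 2.22, 2.95 and 2.67 CPM in siControl libraries. Its siMLX libraries all lay above the siControl libraries, with an edgeR adjusted p of 0.108 that became 0.0477 with the replicate block.

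PARP9, DTX3L and PARP14 lie together on chromosome 3. After siMLX all 3 estimates were below 0 with an unadjusted p under 0.05, which 26% of all genes had in either direction. After siMondoA 2 were below 0 and that of DTX3L was above, and the difference between the genes was not tested. PARP9 and DTX3L form an ADP-ribosylating and ubiquitinating complex that enhances interferon responses, and their starts in RefSeq lie as close as 38 bases apart on opposite strands. PARP9 was at 22.6, 13.1 and 20.5 CPM in siMondoA libraries, at 24.4, 16.4 and 20.7 CPM in siMLX libraries and at 34.2, 37.5 and 31.4 CPM in siControl libraries. All knockdown libraries were lower, with log2 fold changes of -0.87 ± 0.21 after siMondoA (edgeR adjusted p = 0.0136) and -0.75 ± 0.21 after siMLX (edgeR adjusted p = 0.0518). The siMondoA call was lost without siControl replicate 2 (0.0552), and the siMLX value passed with the replicate block (-0.77, adjusted p = 0.0236). DTX3L was at 55.1, 59.1 and 64.2 CPM in siMondoA libraries, at 40.3, 49.6 and 35.3 CPM in siMLX libraries and at 49.5, 52.7 and 52.6 CPM in siControl libraries, so that siMondoA libraries were all above siControl where those of PARP9 were below. Against siControl DTX3L passed neither after siMondoA (0.20 ± 0.13, edgeR adjusted p = 0.274) nor after siMLX (-0.31 ± 0.13, edgeR adjusted p = 0.182). The siMondoA libraries exceeded the siMLX libraries (0.51 ± 0.13, edgeR adjusted p = 0.0328), a call lost without siMLX replicate 1 or 3, siMondoA replicate 2 or 3 or any siControl library (0.0505 to 0.116). PARP14, an ADP-ribosyltransferase, was at 101, 90.3 and 109 CPM in siMondoA libraries, at 77.1, 77.4 and 73.4 CPM in siMLX libraries and at 104.5, 108 and 109 CPM in siControl libraries. It was lowest in siMLX libraries, with a log2 fold change of -0.49 ± 0.10 against siControl (edgeR adjusted p = 0.015), and siMondoA exceeded siMLX by 0.40 ± 0.10 (edgeR adjusted p = 0.0252). The first call was lost without siMLX replicate 3 or any siControl library (0.0562 to 0.0648) and the second without siMLX replicate 1 or 3 or siMondoA replicate 3 (0.0781 to 0.104). TRIM21, the cytosolic antibody receptor, was at 17.0 to 20.1 CPM in siMondoA libraries, 10.4 to 15.5 CPM in siMLX libraries and 16.1 to 17.8 CPM in siControl libraries, with no call.

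Of the 4 antigen presentation genes among the 40, B2M, TAP1 and PSMB9 differed between the siRNAs and PSMB8 did not pass. B2M (chr15:44711487-44718877), the light chain of every MHC class I molecule, was at 1635, 1686 and 1516 CPM in siMondoA libraries, at 1113, 995 and 831 CPM in siMLX libraries and at 1837, 1854 and 1537 CPM in siControl libraries. All siMLX libraries were below all others, and siMondoA and siControl libraries overlapped only between siMondoA replicates 1 and 2 and siControl replicate 3. The log2 difference was -0.83 ± 0.13 in siMLX against siControl (edgeR adjusted p = 0.00551), -0.11 ± 0.13 in siMondoA against siControl (edgeR adjusted p = 0.539) and 0.72 ± 0.13 in siMondoA against siMLX (edgeR adjusted p = 0.00707). TAP1 (chr6:32845209-32853978), a subunit of the peptide transporter into the endoplasmic reticulum, was at 108, 99.3 and 109 CPM in siMondoA libraries, at 64.7, 66.1 and 61.6 CPM in siMLX libraries and at 89.2, 89.4 and 84.9 CPM in siControl libraries. The 3 groups did not overlap, with siMondoA highest and siMLX lowest. The difference was -0.45 ± 0.09 in siMLX against siControl (edgeR adjusted p = 0.0157), 0.26 ± 0.09 in siMondoA against siControl (edgeR adjusted p = 0.0529) and 0.72 ± 0.09 in siMondoA against siMLX (edgeR adjusted p = 0.00159). By DESeq2 TAP1 passed in siMondoA against siControl (adjusted p = 0.0374).

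PSMB8 and PSMB9 encode catalytic subunits of the immunoproteasome, which cuts peptides for class I display, and lie beside TAP1 on chromosome 6. PSMB8 (chr6:32840717-32844703) was at 55.01, 42.4 and 49.8 CPM in siMondoA libraries, at 45.6, 40.1 and 38.3 CPM in siMLX libraries and at 68.8, 59.9 and 56.1 CPM in siControl libraries. Both knockdown groups lay below siControl and overlapped each other. The fall passed after siMLX (-0.58 ± 0.13, edgeR adjusted p = 0.0289) and not after siMondoA (-0.33 ± 0.13, edgeR adjusted p = 0.0903). PSMB9 (chr6:32844136-32859585) was at 31.6, 28.1 and 34.1 CPM in siMondoA libraries, at 22.9, 20.3 and 16.1 CPM in siMLX libraries and at 35.6, 28.7 and 26.4 CPM in siControl libraries. Its siMLX libraries were below all others, with a log2 fold change of -0.61 ± 0.17 against siControl (edgeR adjusted p = 0.0479), and siMondoA exceeded siMLX by 0.66 ± 0.17 (edgeR adjusted p = 0.027). The siMondoA and siControl libraries of PSMB9 overlapped (0.05 ± 0.16, edgeR adjusted p = 0.839). TAP1 and PSMB9, whose RefSeq starts lie as close as 488 bases apart on opposite strands (1431 for the other TAP1 start), both had siMLX as the lowest group. The neighbouring PSMB8 did not differ beyond its spread between siMondoA and siMLX (0.25 ± 0.13, edgeR adjusted p = 0.24).

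Both calls of B2M and the TAP1 call between siMondoA and siMLX held without any 1 library, with adjusted p up to 0.0347, 0.0309 and 0.0115. Leaving out siMLX replicate 3 or siControl replicate 1 or 2 ended the siMLX call of TAP1 (0.0655 to 0.0705). That of PSMB8 was lost without siMLX replicate 2 or 3 or any siControl library (0.0505 to 0.118), and that of PSMB9 without siMLX replicate 2 or 3, siMondoA replicate 1 or 3 or any siControl library (0.0512 to 0.174). The PSMB9 difference between siMondoA and siMLX was lost without siMLX replicate 3 or siMondoA replicate 3 (0.0987 and 0.0932). PSMB8 and TAP1 share 19.4% and 15.2% of their 25-base words with other genes, mostly the antisense gene PSMB8-AS1.

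**Figure D5:**
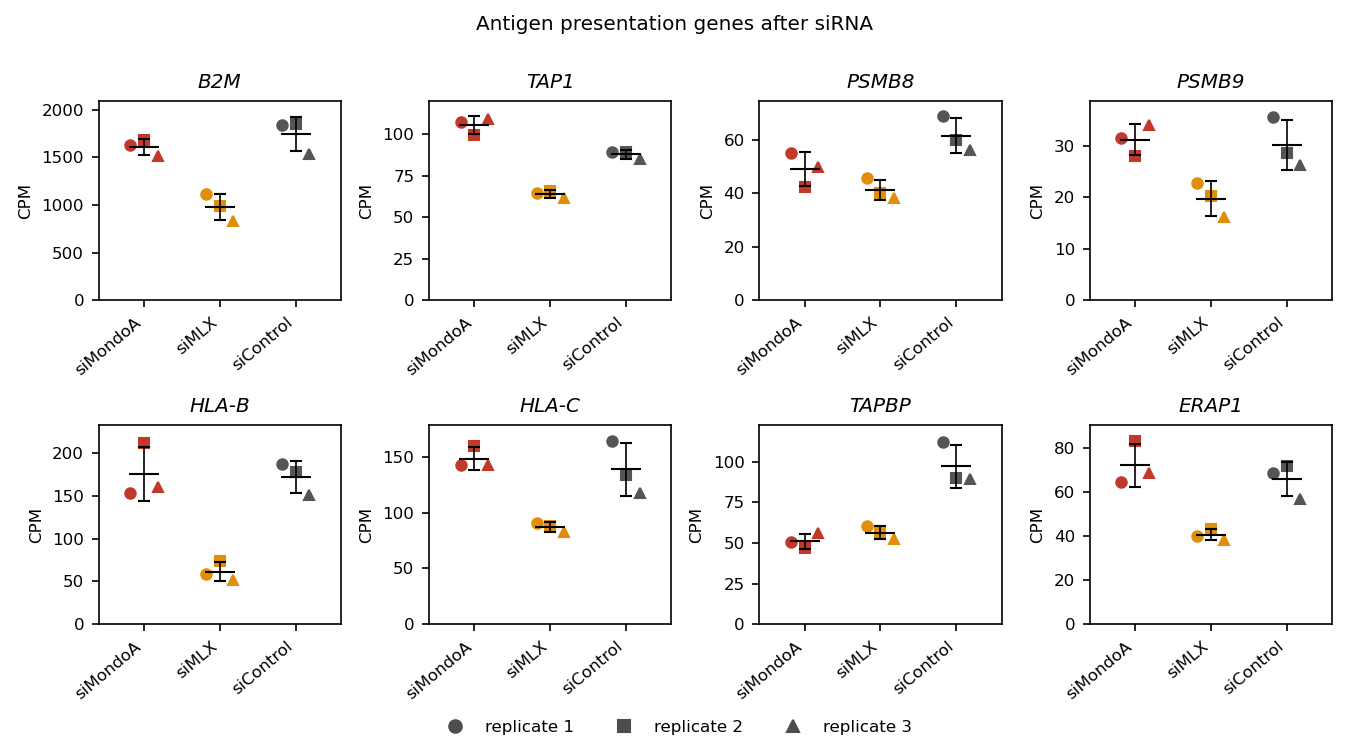
CPM of B2M, TAP1, PSMB8 and PSMB9 and of 4 further class I genes in each siRNA library; symbols are replicates 1, 2 and 3, and the horizontal line with its bar is the mean with SD of 3 libraries. B2M, TAP1, PSMB9, HLA-B, HLA-C and ERAP1 were lowest in all 3 siMLX libraries, while TAPBP was below siControl after both siRNAs.

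The other class I genes were read from a list of 18, of which 17 were tested. After siMondoA 0 were higher and 3 were lower, TAPBP and PSME1 among them, with a median log2 fold change of -0.06, and 1 other had an unadjusted p under 0.05. Over all genes 14.2% were higher and 12.9% lower after siMondoA, and 41.4% had an unadjusted p under 0.05. After siMLX 0 of the 17 were higher and 6 were lower, where 3.72% and 4.69% of all genes were, with a median of -0.54 and all 17 estimates below 0. An unadjusted p under 0.05 was reached after siMLX by 12 of the 17 and by 26% of all genes. HLA-B, a class I heavy chain, was at 154, 212 and 161 CPM in siMondoA libraries, at 58.2, 73.9 and 52.1 CPM in siMLX libraries and at 188, 178 and 151 CPM in siControl libraries. It fell in siMLX libraries (-1.49 ± 0.17, edgeR adjusted p = 0.0013) and not in siMondoA libraries (0.03 ± 0.16, edgeR adjusted p = 0.912), and the difference between the siRNAs was 1.52 ± 0.17 (edgeR adjusted p = 0.000893). HLA-C was at 142, 160.2 and 143 CPM in siMondoA libraries, at 91.1, 87.7 and 82.4 CPM in siMLX libraries and at 164.5, 134 and 118 CPM in siControl libraries, with a log2 fold change of -0.67 ± 0.13 after siMLX (edgeR adjusted p = 0.0133). That call was lost without siMLX replicate 3 or siControl replicate 1 (0.0553 and 0.0524). HLA-B and HLA-C share 30.7% and 24.7% of their 25-base words with other genes, mainly other class I genes, so their separate values are uncertain.

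TAPBP, the tapasin that bridges TAP to class I molecules, was at 50.8, 46.7 and 55.9 CPM in siMondoA libraries, at 60.3, 56.4 and 52.2 CPM in siMLX libraries and at 112, 90.01 and 89.2 CPM in siControl libraries. It fell after both siRNAs, with log2 fold changes of -0.93 ± 0.13 after siMondoA (edgeR adjusted p = 0.00125) and -0.79 ± 0.13 after siMLX (edgeR adjusted p = 0.0059). ERAP1, which trims peptides in the endoplasmic reticulum, was at 64.5, 83.0 and 68.7 CPM in siMondoA libraries, at 39.9, 43.4 and 38.3 CPM in siMLX libraries and at 68.7, 71.7 and 56.9 CPM in siControl libraries, with a log2 fold change of -0.70 ± 0.13 after siMLX (edgeR adjusted p = 0.0133). The ERAP1 call was lost without siMLX replicate 3 or siControl replicate 1 or 2 (0.0554 to 0.0655). NLRC5, the transactivator of class I genes, was at 24.3, 18.9 and 21.7 CPM in siMondoA libraries, at 21.5, 19.4 and 24.9 CPM in siMLX libraries and at 19.1, 25.0 and 27.4 CPM in siControl libraries, with overlapping groups, and it was named after its values were seen. PSME1, a proteasome activator subunit, had a log2 fold change of -0.44 ± 0.11 after siMondoA (edgeR adjusted p = 0.0162), lost without siMondoA replicate 3 or siControl replicate 1 or 2 (0.0577 to 0.0654). Between the siRNAs 5 of the 17 were higher in siMondoA libraries and 0 lower by edgeR, where 6.66% of all genes were higher and 6.21% lower. An unadjusted p under 0.05 was reached by 8 of the 17 and by 30.3% of all genes. TAP2, the partner of TAP1, was among the 5 higher genes with a log2 difference of 0.45 ± 0.10 (edgeR adjusted p = 0.0155), lost without siMLX replicate 1 (0.0681) or siMondoA replicate 3 (0.0511).

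Of the 14 class II genes tested from a list of 15, 3 were lower after siMondoA and 7 after siMLX, and 0 were higher after either by edgeR, with 4 and 11 at an unadjusted p under 0.05. Of all genes 14.2% were higher and 12.9% lower after siMondoA, and 3.72% were higher and 4.69% lower after siMLX. An unadjusted p under 0.05 was reached by 41.4% of all genes after siMondoA and by 26% after siMLX. Class II molecules present peptides from outside the cell and are normally confined to immune cells unless induced. HLA-DRA was at 58.4, 65.3 and 80.7 CPM in siMondoA libraries, at 43.9, 73.7 and 51.6 CPM in siMLX libraries and at 113, 148 and 112 CPM in siControl libraries, with log2 fold changes of -0.87 ± 0.20 (edgeR adjusted p = 0.0116) and -1.14 ± 0.20 (edgeR adjusted p = 0.00945). Without siControl replicate 2 the first of these was at 0.0532. CD74, the invariant chain, was at 141, 256.3 and 214 CPM in siMondoA libraries, at 65.4, 134.5 and 78.8 CPM in siMLX libraries and at 263, 317.5 and 266 CPM in siControl libraries, with a log2 fold change of -1.60 ± 0.27 after siMLX (edgeR adjusted p = 0.00846). RFX5, a factor bound at class II promoters, was at 79.8, 52.2 and 74.9 CPM in siMondoA libraries, at 89.8, 85.4 and 77.1 CPM in siMLX libraries and at 134, 132 and 129.6 CPM in siControl libraries. Both knockdowns lay far below siControl, with log2 fold changes of -0.93 ± 0.15 (edgeR adjusted p = 0.00237) and -0.65 ± 0.15 (edgeR adjusted p = 0.026), the second lost without siMLX replicate 3 or any siControl library (0.0683 to 0.0916). CTSS, the protease that clips CD74, was higher in siMondoA than in siMLX libraries by 1.40 ± 0.27 on the log2 scale (edgeR adjusted p = 0.00916). The calls of HLA-DMB after siMondoA (-1.28 ± 0.37, edgeR adjusted p = 0.0291), HLA-DMA after siMLX (-1.15 ± 0.26, edgeR adjusted p = 0.0249) and CD74 between the siRNAs (1.13 ± 0.27, edgeR adjusted p = 0.0228) were each lost without 4 or 5 single libraries (0.0557 to 0.101).

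Upstream of these genes, transcripts of interferons themselves were nearly absent. The 21 listed interferon genes summed to 6 to 18 counts in siMondoA libraries, 11 to 22 in siMLX libraries and 10 to 12 in siControl libraries, and to 48 to 73 counts in SBI-477 libraries and 73 to 87 in DMSO libraries. Nearly all of these belonged to IFNE, an interferon of epithelia, and IFNB1, IFNG, IFNL2 and IFNL3 had no count in any library. Of 17 listed receptor and JAK-STAT genes, all tested, 3 were higher (IFNLR1, IFNGR1 and IL10RB) and 2 were lower after siMondoA, where 14.2% and 12.9% of all genes were. After siMLX 0 passed and 8 had an unadjusted p under 0.05, which 26% of all genes had. IFNLR1, the specific chain of the interferon lambda receptor, was at 18.6, 18.4 and 18.9 CPM in siMondoA libraries, at 13.97, 12.7 and 11.1 CPM in siMLX libraries and at 10.8, 8.61 and 10.0 CPM in siControl libraries, with a log2 fold change of 0.92 ± 0.15 after siMondoA (edgeR adjusted p = 0.00244). IFNGR1, the ligand-binding chain of the interferon gamma receptor, was at 58.05, 60.1 and 64.0 CPM in siMondoA libraries, at 37.5, 57.4 and 36.0 CPM in siMLX libraries and at 31.6, 32.3 and 28.9 CPM in siControl libraries, with siMLX replicate 2 close to the siMondoA libraries and a log2 fold change of 0.97 ± 0.17 after siMondoA (edgeR adjusted p = 0.00377). IL10RB, the shared chain of the interferon lambda receptor, was at 38.0, 50.9 and 41.9 CPM in siMondoA libraries, at 22.9, 23.2 and 17.8 CPM in siMLX libraries and at 30.2, 26.7 and 24.8 CPM in siControl libraries. The 3 groups did not overlap, and siMondoA exceeded siControl by 0.68 ± 0.16 (edgeR adjusted p = 0.0115) and siMLX by 1.03 ± 0.16 (edgeR adjusted p = 0.00379). Between the siRNAs IFNLR1 differed by 0.57 ± 0.15 (edgeR adjusted p = 0.0292), lost without siMLX replicate 1 or 3 or siMondoA replicate 2 or 3 (0.0531 to 0.11), and the phosphatase gene PTPN11 by -0.55 ± 0.11 (edgeR adjusted p = 0.0124), lost without siMLX replicate 3 (0.0539).

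Of 17 tested genes of nucleic acid sensing, 4 were higher and 1 was lower after siMondoA, and 2 were higher and 2 lower after siMLX. Of all genes 14.2% were higher and 12.9% lower after siMondoA, and 3.72% higher and 4.69% lower after siMLX. MB21D1, the DNA sensor cGAS, was at 20.7, 21.1 and 19.1 CPM in siMondoA libraries, at 15.1, 18.7 and 18.0 CPM in siMLX libraries and at 9.77, 11.7 and 13.1 CPM in siControl libraries, all knockdown libraries being higher. Its log2 fold change was 0.81 ± 0.15 after siMondoA (edgeR adjusted p = 0.00464) and 0.58 ± 0.15 after siMLX (edgeR adjusted p = 0.0419), the second lost without siMLX replicate 2 or 3, siMondoA replicate 3 or any siControl library (0.059 to 0.15). TREX1, the exonuclease that removes cytosolic DNA, was at 4.69, 3.02 and 3.12 CPM in siMondoA libraries, at 4.86, 2.54 and 3.43 CPM in siMLX libraries and at 9.33, 7.67 and 6.91 CPM in siControl libraries. Its log2 fold change was -1.14 ± 0.27 after siMondoA (edgeR adjusted p = 0.0137) and the same after siMLX (edgeR adjusted p = 0.0311). The siMondoA call of TREX1 was lost without siMondoA replicate 3 or siControl replicate 1 (0.0541 and 0.0527), and the siMLX call without siMLX replicate 2 or 3 or any siControl library (0.0588 to 0.117). AIM2, an inflammasome sensor of DNA, was at 1.17, 2.23 and 3.36 CPM in siMondoA libraries, at 1.24, 1.77 and 0.533 CPM in siMLX libraries and at 0.267, 0.155 and 0.326 CPM in siControl libraries. It was higher in every knockdown library, although the siControl values are 2 to 5 counts, and passed after siMondoA (3.11 ± 0.59, edgeR adjusted p = 0.00505). IRF3, the factor activated by these sensors, had log2 fold changes of 0.43 ± 0.11 after siMondoA (edgeR adjusted p = 0.0182) and 0.42 ± 0.11 after siMLX (edgeR adjusted p = 0.0418), lost without siMondoA replicate 3 or siControl replicate 1 or 2 (0.0558 to 0.0717) and without 7 of the 9 libraries singly (0.0626 to 0.144). The call of TLR3 between the siRNAs (0.95 ± 0.25, edgeR adjusted p = 0.0308) was lost without siMLX replicate 1 or 3 or siMondoA replicate 1 or 3 (0.071 to 0.113).

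A further 53 interferon-induced genes outside the 40 were listed, and 44 were tested. After siMondoA 6 were higher and 12 lower, where 14.2% and 12.9% of all genes were, with a median log2 fold change of -0.14. After siMLX 0 were higher and 9 lower, where 3.72% and 4.69% of all genes were, with a median of -0.35. Of the 44, 22 had an unadjusted p under 0.05 after siMLX in either direction, which 26% of all genes had. IFITM1, which blocks viral entry at the membrane, was at 25.6, 21.0 and 31.5 CPM in siMondoA libraries, at 46.0, 60.8 and 40.3 CPM in siMLX libraries and at 87.1, 81.6 and 66.1 CPM in siControl libraries. All knockdown libraries were below siControl, with log2 fold change -1.59 ± 0.19 after siMondoA (edgeR adjusted p = 0.000736), and the log2 difference of siMondoA from siMLX was -0.91 ± 0.19 (edgeR adjusted p = 0.0141), the opposite order from B2M and TAP1. CD274, which encodes the checkpoint ligand PD-L1, was at 4.69, 6.60 and 11.2 CPM in siMondoA libraries, at 1.15, 4.46 and 1.75 CPM in siMLX libraries and at 0.533, 0.930 and 0.978 CPM in siControl libraries. It was higher in every siMondoA library (3.16 ± 0.53, edgeR adjusted p = 0.00298), and siMLX replicate 2 again lay nearest to them. APOL1, a lytic factor against trypanosomes, was at 41.6, 35.6 and 42.0 CPM in siMondoA libraries, at 25.9, 19.7 and 23.2 CPM in siMLX libraries and at 45.6, 43.7 and 38.3 CPM in siControl libraries, with a log2 fold change of -0.89 ± 0.14 after siMLX (edgeR adjusted p = 0.00535) and a difference of 0.80 ± 0.14 between the siRNAs (edgeR adjusted p = 0.00634).

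IFITM3 and GBP2, a restriction factor of endosomal entry and a GTPase of the interferon gamma response, were lower after siMondoA, with log2 fold changes of -0.95 ± 0.15 (edgeR adjusted p = 0.00213) and -1.72 ± 0.27 (edgeR adjusted p = 0.00244). GBP2 was at 39.3, 20.8 and 27.0 CPM in siMondoA libraries, at 54.3, 46.5 and 34.5 CPM in siMLX libraries and at 120.1, 99.9 and 66.6 CPM in siControl libraries, with every knockdown library below siControl. GBP4 had a log2 fold change of -1.97 ± 0.34 after siMLX (edgeR adjusted p = 0.00926). After siMLX PARP10 (-0.78 ± 0.14, edgeR adjusted p = 0.0112) and LGALS3BP (-0.64 ± 0.12, edgeR adjusted p = 0.0131) were lower too, lost without siControl replicate 1 in both cases (0.0562 for PARP10 and 0.0622 for LGALS3BP) and, for LGALS3BP, also without siMLX replicate 3 (0.0529). Between the siRNAs 8 of the 44 were higher in siMondoA libraries and 4 lower, where 6.66% and 6.21% of all genes were. APOL6 was at 109, 138 and 136 CPM in siMondoA libraries, at 46.4, 81.0 and 42.1 CPM in siMLX libraries and at 75.3, 70.5 and 67.7 CPM in siControl libraries, a difference of 1.18 ± 0.22 between the siRNAs (edgeR adjusted p = 0.0078) in which siMLX replicate 2 again lay nearest to siMondoA. NMI, the partner of IFI35, differed by 0.91 ± 0.21 (edgeR adjusted p = 0.0201), lost without siMLX replicate 1 or 3 or siMondoA replicate 2 or 3 (0.0502 to 0.0628).

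SBI-477 was compared with DMSO in 6 libraries as labelled. Of the 38 tested genes 0 were higher and 0 lower by edgeR, where 0% of all 14023 genes were higher and 0% were lower, and DESeq2 also called 0. An unadjusted p under 0.05 was reached by 2 of the 38 (IFI44 and ISG20) and by 409 of all genes (2.92%). OASL was at 24.9, 14.5 and 22.8 CPM in SBI-477 libraries and at 12.5, 25.0 and 15.5 CPM in DMSO libraries. Replicates 1 and 3 of SBI-477 were thus above replicates 1 and 3 of DMSO, and the replicates numbered 2 lay the other way round. IFIT2 was at 1.95, 3.20 and 1.68 CPM in SBI-477 libraries and at 4.32, 1.22 and 4.86 CPM in DMSO libraries, with the same crossing in the opposite direction. Of the 40 genes, USP18 and HERC6 were higher and ISG20 lower in all 3 SBI-477 libraries than in all DMSO libraries, and the groups of the other 37 overlapped. USP18, HERC6 and ISG20 were not called by edgeR or DESeq2. The share of all genes without overlap was not computed, so their separation is not read as a drug effect.

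EPSTI1, IRF7, IFIT3, DDX58, PARP9, STAT2, IFI35 and ISG15 did not separate the drug groups as labelled. EPSTI1 was at 0.479, 0.374 and 0.531 CPM in SBI-477 libraries and at 0.731, 0.391 and 0.884 CPM in DMSO libraries. IRF7 was at 2.46, 3.08 and 2.61 CPM in SBI-477 libraries and at 2.73, 3.78 and 2.43 CPM in DMSO libraries. IFIT3 was at 10.4, 12.3 and 9.16 CPM in SBI-477 libraries and at 11.1, 10.1 and 13.6 CPM in DMSO libraries. In each case the 2 sets of values overlapped. DDX58 was at 15.4, 16.1 and 13.4 CPM in SBI-477 libraries and at 18.0, 13.2 and 19.98 CPM in DMSO libraries. PARP9 was at 32.8, 28.9 and 26.1 CPM in SBI-477 libraries and at 33.6, 25.7 and 37.2 CPM in DMSO libraries. Both genes overlapped, with DMSO replicate 2 lowest of all 6 libraries. STAT2 was at 26.4, 27.0 and 23.6 CPM in SBI-477 libraries and at 25.7, 22.2 and 31.9 CPM in DMSO libraries. IFI35 was at 23.3, 19.01 and 18.5 CPM in SBI-477 libraries and at 17.5, 25.8 and 21.7 CPM in DMSO libraries. ISG15 was at 21.9, 23.2 and 24.6 CPM in SBI-477 libraries and at 24.1, 31.4 and 20.4 CPM in DMSO libraries. None of the 3 separated the groups.

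In replicates 1 and 3 alone, 1 of the 38 genes was higher with SBI-477 (OASL) and 9 were lower (IFIH1, IRF1, IFIT1, IFIT2, IFI44, IFI44L, SAMD9, SAMD9L and PARP14), where 9.07% of 14232 genes were higher and 9.02% lower, so that the share of lower calls, but not of higher calls, stood above the background. The median log2 fold change of the 38 was -0.23, against -0.01 over all genes, and 26 of 38 estimates lay below 0. OASL had a log2 fold change of 0.77 ± 0.13 (edgeR adjusted p = 0.00646) and IFIT2 of -1.33 ± 0.24 (edgeR adjusted p = 0.00688). IFIT1, at 5.13 and 3.05 CPM in these SBI-477 libraries and at 7.08 and 9.53 CPM in the DMSO libraries, had a log2 fold change of -1.004 ± 0.26 (edgeR adjusted p = 0.0271). IRF1, at 48.8 and 43.0 CPM with SBI-477 and at 67.4 and 64.0 CPM with DMSO, had a log2 fold change of -0.51 ± 0.09 (edgeR adjusted p = 0.00769). SAMD9L was at 12.96 and 9.16 CPM with SBI-477 and at 14.9 and 19.4 CPM with DMSO (-0.62 ± 0.19, edgeR adjusted p = 0.0488), and IFIH1 at 3.97 and 3.41 CPM with SBI-477 and at 5.62 and 7.23 CPM with DMSO (-0.79 ± 0.21, edgeR adjusted p = 0.0314). With 2 libraries a group these values rest on few libraries, and which label of replicate 2 is right cannot be settled from the counts.

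The antigen presentation genes and BST2 did not pass in either reading of the drug libraries. B2M was at 969, 739 and 892 CPM in SBI-477 libraries and at 791, 1079 and 890 CPM in DMSO libraries, and in replicates 1 and 3 its log2 fold change was 0.15 ± 0.10 (edgeR adjusted p = 0.305). PSMB8 was at 99.2, 78.6 and 92.3 CPM in SBI-477 libraries and at 80.7, 115 and 76.9 CPM in DMSO libraries, with 0.28 ± 0.09 (edgeR adjusted p = 0.0524) in replicates 1 and 3. TAP1 was at 70.6, 62.5 and 67.3 CPM in SBI-477 libraries and at 60.4, 66.8 and 65.4 CPM in DMSO libraries, and PSMB9 at 38.3, 36.1 and 35.1 CPM with SBI-477 and at 35.0, 51.7 and 39.9 CPM with DMSO. As labelled, the groups of all 4 genes overlapped. BST2 was at 101.5, 71.1 and 80.4 CPM in SBI-477 libraries and at 89.7, 136 and 102 CPM in DMSO libraries, and -0.08 ± 0.12 (edgeR adjusted p = 0.688) in replicates 1 and 3. The authors' deposited fold changes, by contrast, were recovered only with the labels of replicate 2 exchanged. In the authors' deposited table, 4 of the 38 genes with an adjusted p were higher with SBI-477 and 9 lower at 0.05. Of all genes 10.6% were higher and 9.51% lower there, so the share of lower genes, but not of higher genes, stood above the background. The 4 higher genes were OASL (log2 fold change 0.79, adjusted p = 3.96e-07), IFI6 (0.60, 0.0109), PSMB8 (0.39, 0.00661) and B2M (0.29, 0.0465) in the authors' deposited table. The 9 lower genes there were IFIH1, IRF1, IRF9, IFIT1, IFIT2, IFI44L, SAMD9, SAMD9L and PARP14.

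Whether the SBI-477 effect differed from the siMondoA effect was tested as an interaction over all 15 libraries. With the labels as given, 0 of 38 genes differed by edgeR, where 3.84% of all genes had a higher and 3.83% a lower SBI-477 effect. An unadjusted p under 0.05 was reached by 9 of the 38 and by 25.5% of all genes. DESeq2 called 4 of the 38 (EPSTI1, IFI35, IFIT1 and IRF7) and 13.1% of all genes, so neither count stood above the background. EPSTI1 had the smallest adjusted p by edgeR, with a log2 difference of -1.98 ± 0.59 (adjusted p = 0.0516). The count of 0 became 2 without siMondoA replicate 1 and 1 without siControl replicate 1 or DMSO replicate 2. Of all genes 12%, 3.08% and 9.76% differed in these settings. With drug replicates 1 and 3 alone, 5 of 38 differed, where 11.5% of all genes differed in either direction, a share near that of these genes. The SBI-477 effect was then higher than the siMondoA effect for BST2 (0.90 ± 0.25, edgeR adjusted p = 0.0365) and PSMB8 (0.63 ± 0.19, edgeR adjusted p = 0.0455). It was lower for EPSTI1 (-2.10 ± 0.59, edgeR adjusted p = 0.0389), IRF1 (-1.11 ± 0.33, edgeR adjusted p = 0.0487) and SAMD9L (-0.88 ± 0.24, edgeR adjusted p = 0.0367). IFIT1, IFIT2 and OASL, which had calls of the same sign after siMondoA and in drug replicates 1 and 3, had differences of 1.14 ± 0.65, 0.08 ± 0.40 and -0.35 ± 0.29 that did not pass (edgeR adjusted p = 0.259, 0.926 and 0.438).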

How the data were processed

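RNA-seq libraries of PSN-1 cells were made from total RNA and sequenced as 25 by 25 base paired-end reads, per the labels' protocols. The authors deposited raw counts per gene symbol for each library; the submitters' processing notes name HTSeq 0.6.1, TopHat2 2.1.0, bcl2fastq 1.8.4 and edgeR, and the builds hg38 and mm10. The authors also deposited log2 fold changes with p-values and adjusted p-values, under column names of the kind DESeq2 writes, per the file headers. Their siRNA fold changes were recovered from the counts by DESeq2 with the replicate number in the model. The median absolute difference on the log2 scale was 2.21e-13 after siMondoA and 7.05e-13 after siMLX. The authors' siRNA calls and the edgeR calls without a replicate term therefore rest on different models. No source used here gives the strand setting of the counting. No column held samples outside the 15 libraries. The 40 genes, the other gene lists and the tests were chosen with earlier results of these data known.

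Counts were fitted in R 4.3.3 with edgeR 4.0.16 (filterByExpr, TMM scaling, quasi-likelihood F-test, no replicate term), the 9 siRNA libraries in 1 fit, the 6 drug libraries in another and all 15 for the difference of effects. P-values were adjusted over all genes tested (Benjamini-Hochberg) and called under 0.05; ± beside a log2 fold change is its standard error. The fits were tested on simulated data. CPM is a count divided by the library's total scaled by its TMM factor, times 1000000. Depth was 11227343 to 14731691 counts per siRNA library and 23315440 to 30480362 per drug library; 3 counts served as the floor of detection. Every gene of the list was named. Per-library values are given for genes with a call, for the sensors, transcription factors and antigen presentation genes, and for the 6 most abundant; from each other list, up to 4 called genes with the smallest adjusted p per comparison were named, with IFNB1, HLA-B and HLA-C in any case; a few genes of those lists are not reported here. Alternatives were DESeq2 1.42.0, RLE scaling, no filter, only the libraries compared, a replicate block, each library left out in turn, and drug replicates 1 and 3 alone.

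Replicate numbers in the column names were checked for pairing by correlating the deviations of same-numbered libraries from their group means. For siMLX and siControl all 3 correlations were over 0.1 (0.189 to 0.36), so blocked values are given where they change a call. For siMondoA with siControl (0.009 to 0.135), siMLX with siMondoA (-0.109 to 0.533) and SBI-477 with DMSO (-0.554 to -0.244) they were not, and the numbers were not taken as pairs. Gene positions, exon lengths and shared 25-base words came from GENCODE v29 (GRCh38), promoter windows from RefSeq (GRCh38.p14), and figures from matplotlib 3.10.9.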

Additional observations from a re-analysis of the deposited data

How the results depend on the processing

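No log2 fold change of a called gene reversed under any alternative. After siMondoA the count of lower genes was 4 and became 8 with the replicate block, which added DDX58, IFIT3, OAS1 and PSMB8 while the share of all genes called lower became 17%, against 12.9%. There, leaving out single libraries gave 1 to 6 higher genes, where 6.35% to 17.4% of all genes were higher. After siMLX, leaving out single libraries gave 0 to 2 higher and 4 to 13 lower genes. Of all genes 0.789% to 4.71% were then higher and 1.14% to 5.81% lower. Of siMondoA against siMLX the 9 higher genes became 4 with only the 6 libraries compared, where 2.8% of all genes were higher, against 6.66%. Single libraries left out gave 4 to 9 higher and 0 to 1 lower genes, where 2.4% to 12.6% and 2.68% to 9.91% of all genes were. The replicate block moved no other count of any comparison by over 1.5 times. For SBI-477 against DMSO the counts of 0 became 1 higher and 9 lower with drug replicates 1 and 3 alone. There 9.07% of all genes were higher and 9.02% lower, against 0% with all 6 libraries. Of genes whose SBI-477 effect differed from the siMondoA effect, 0 became 1 with RLE scaling, 4 with DESeq2, 5 with drug replicates 1 and 3 alone and 0 to 2 with single libraries left out. The share of all genes called was 7.8% with RLE scaling, 13.1% with DESeq2 and 11.5% with drug replicates 1 and 3 alone. With single libraries left out it was 3.05% to 12%. The cause of these changes was not tested. Depth limits RSAD2, TRIM22 and HERC5, whose siRNA libraries held few counts, and 3 libraries a group limit every call that 1 library ends.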
